A study of Mus musculus with 8 samples.

Results

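The genes described here encode the haemoglobin chains, the red cell membrane, the enzymes of haem synthesis, the regulators of the erythroid lineage and the proteins that carry, store and recycle iron. They were taken from a fixed list of 38 genes, and every probe annotated to a listed gene was read, under its current symbol where the list held an older one (Spnb1 is now Sptb, and Epb4.2 is now Epb42). This gave 53 probes for 32 of the 38 genes, among 25695 probes and 16593 named genes on the arrays. Hbb-b1, Ahsp, Spna1, Epb4.1, Car1 and Slc25a37 had no probe under these symbols and are not analysed here. Spines came from 4 control and 4 PGISp mice, 1 array per spine, all of the BALB/c strain and all lacking IL4. PGISp stands for proteoglycan-induced spondylitis: female mice were injected from 3 months of age, on days 0, 21 and 42, with human cartilage extract (2 mg, with 100 μg of PG core protein) in the adjuvant dimethyl dioctadecyl ammoniumbromide (2 mg). Controls received no PG extract, and the sources used here do not give their sex or age separately. Spines of both groups were collected at week 12, and the PGISp mice had been selected for severe peripheral arthritis, since disease in the spine itself could not be scored on frozen tissue. The spines are named by the letter of the array position, A, C, E and G for PGISp and B, D, F and H for control.

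Red cells are made in the marrow of the vertebrae. Erythroid precursors take up iron bound to transferrin through the transferrin receptor, insert it into protoporphyrin in the mitochondrion and load the haem into globin, while GATA1, TAL1 and KLF1 switch on the genes involved. Macrophages of the marrow break down old red cells, free the iron with haem oxygenase and return it to the blood through ferroportin. A whole spine holds marrow, bone, cartilage, muscle and nerve, so fewer cells of a type and less RNA per cell cannot be told apart in these data.

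The deposited values are on a log2 scale, transformed and normalized by the authors, and differences below are PGISp minus control on that scale. As a background level, the value that 95% of 1305 probes for odorant and pheromone receptors did not exceed was taken per array, and it lay between 6.73 and 6.80. PGISp A had the highest background level (6.80, against 6.73 to 6.76 on the other 7 arrays). It had 11942 probes above this level, against 13043 to 14114 on the other 7 arrays. Sorted values of the arrays differ by at most 0.005, so this count is set by the background level of each array. Without PGISp A, Slc11a1 was still higher (0.44, adjusted p = 0.0543 in limma) and Ank1 still lower (-0.35, adjusted p = 0.0502), Spnb1 was not called (adjusted p = 0.160), and Alad and Urod were called lower. Probes with a mean above 6.77, the median of all values, were tested, and the brightest such probe stood for a gene. This filter kept 43 member probes, and 27 of the 32 genes entered the fit, among 9608 genes in all. The other 5 genes (Epb4.2, Rhd, Bpgm, Steap3 and Ftl1) read between 6.56 and 6.75 in both group means, at background, and no fold can be given for them. A gene was called at a Benjamini-Hochberg adjusted p under 0.1 in limma over all 9608 genes. Controls B and F carried a signal of the Y-linked gene Eif2s3y (8.57 and 8.33), against 6.49 to 6.91 on the other 6 arrays. No PGISp spine carried it, so what goes with this signal cannot be fully told apart from the difference between the groups. With control B and F left out together, 1.7% of all genes and 0 members were called. Fewer controls also lower the precision of this fit, and no other pair of controls was left out for comparison.

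Most erythroid, haem and iron genes did not pass the test. Of the 27 genes tested, 1 was higher and 2 were lower in PGISp spines, which is 11.1% of them against 10.8% of all genes tested. In each direction the share of all genes called was 6.26% higher and 4.56% lower. The gene that rose was Slc11a1, a metal transporter of phagocytes, and those that fell were Ank1 and Spnb1, the ankyrin and β-spectrin of the red cell skeleton. The same 3 genes were the members whose groups did not overlap, a separation seen in 13.4% of all genes (7.77% with PGISp spines above and 5.67% with PGISp spines below). At an unadjusted p under 0.05 stood 6 of the 27 members, 1 higher and 5 lower, against 22.6% of all genes. The other 24 did not pass, and the 95% intervals of their differences reached from -0.77 (Slc4a1) to 0.48 (Alas2). The interval reached a median of 0.28 to either side over the 27 genes, which limits what could be resolved with 4 arrays per group.

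**Figure D1:**
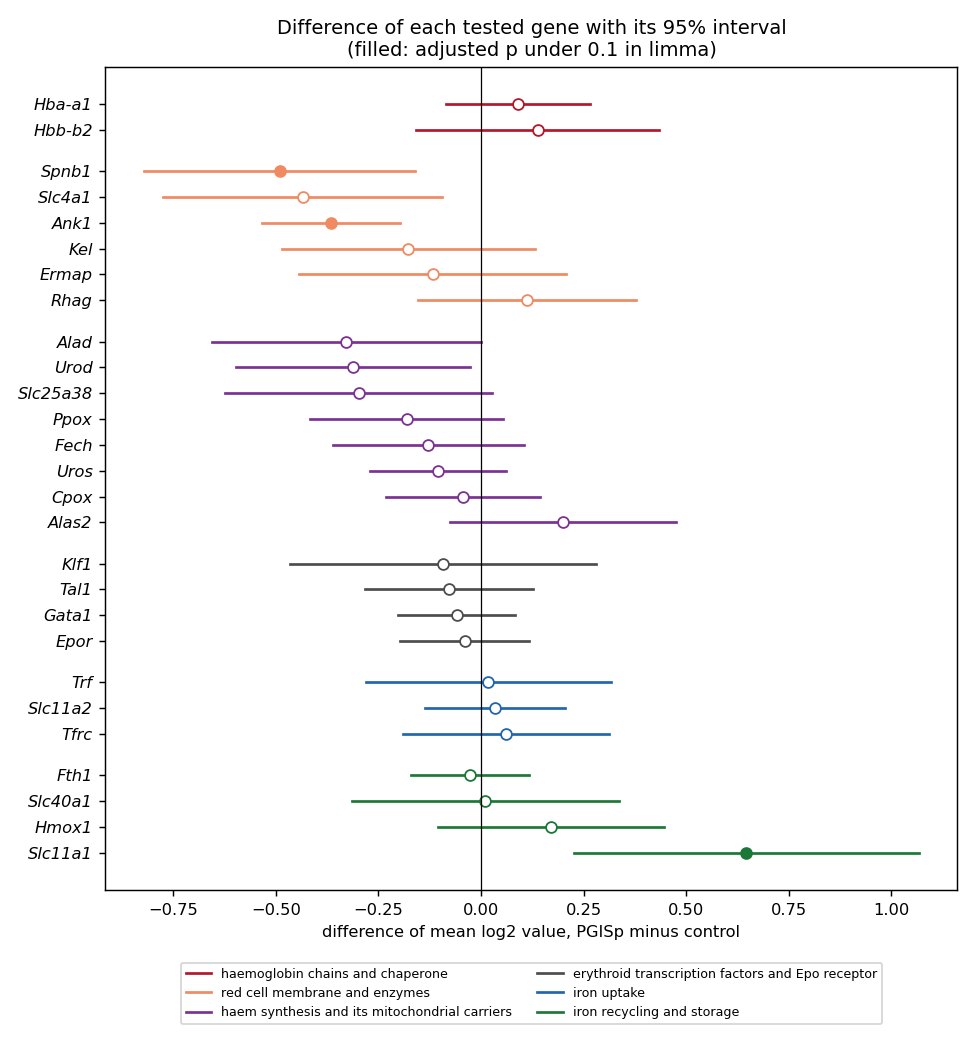
The difference of mean log2 value (PGISp minus control, horizontal axis) is plotted for each of the 27 genes tested, with its 95% interval from limma as a line, grouped and coloured by role. Filled points mark Ank1, Spnb1 and Slc11a1, the 3 genes called, and 24 points are open.

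To show regulatory sequence beside the values, stretches upstream of the transcription start of 4 members are given from RefSeq (build GRCm38.p6), 5′ to 3′ on the strand of the gene. They are 2 members that were called (Spnb1, under its current symbol Sptb, and Slc11a1) and 2 central genes of haemoglobin production that were not (Hba-a1 and Alas2). Capitals mark a GATA motif (AGATAA or AGATAG or TGATAA or TGATAG) or a KLF motif (CCNCNCCC), on either strand, and neighbouring KLF motifs may overlap. The stretch of Hba-a1 lies at chr11:32283472-32283571 (plus strand), that of Alas2 at chrX:150547297-150547406 (plus strand), that of Sptb at chr12:76710583-76710682 (minus strand) and that of Slc11a1 at chr1:74375043-74375142 (plus strand).
Hba-a1: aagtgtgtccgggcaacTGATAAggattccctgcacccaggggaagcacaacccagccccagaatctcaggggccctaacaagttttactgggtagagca
Alas2: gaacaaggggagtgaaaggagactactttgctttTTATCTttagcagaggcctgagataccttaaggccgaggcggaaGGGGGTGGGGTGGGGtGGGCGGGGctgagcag
Sptb: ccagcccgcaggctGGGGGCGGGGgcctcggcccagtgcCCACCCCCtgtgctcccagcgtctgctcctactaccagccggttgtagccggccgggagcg
Slc11a1: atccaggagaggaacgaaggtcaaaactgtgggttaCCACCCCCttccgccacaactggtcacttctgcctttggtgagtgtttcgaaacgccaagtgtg

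Of the 38 genes, 25 had at least 1 such window of 250 bases before a start. A GATA motif was found for 14 of these 25 (56%), against 29.7% of 27025 genes with a window, and a KLF motif for 15 of 25 (60%), against 48.5%. Hba-a1 and Klf1 held a GATA motif, Alas2 and Epor held both kinds, and Slc11a1 and Spnb1 held a KLF motif but no GATA motif in the window. The antioxidant response motif TGACNNNGC, on either strand, was found for 2 of 25 genes (8%), against 11.5% of all. The loop of the iron-responsive element (CAGTGN) was sought on the forward strand in the 50 bases after a start. It was found for 3 of 25 genes (12%), against 8.23% of all, and not for Alas2 or Fth1. These are matches of letters and were not tested for binding.

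Haemoglobin transcripts differed between the groups by less than the spread of the PGISp spines, and the Hba-a1 probe was among the brightest on every array. Hba-a1, an α-globin gene, read 14.06, 14.20, 14.16 and 14.12 in control B, D, F and H, and 14.41, 14.09, 14.12 and 14.29 in PGISp A, C, E and G. Values overlapped, with PGISp A highest and control B lowest, and the highest value of any probe on each array was 14.48, so this probe lay close to the top of the scale, where differences are compressed. The difference was 0.09 (95% interval -0.09 to 0.27, adjusted p = 0.559 in limma). The probe cannot separate Hba-a1 from a near-identical α-globin copy, nor need the β-globin probes separate their copies.

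Hbb-b2, an adult β-globin gene, read 11.53, 11.50, 11.64 and 11.40 in control B, D, F and H and 12.08, 11.37, 11.62 and 11.54 in PGISp A, C, E and G. PGISp A stood above all other spines and PGISp C below them, and the difference of 0.14 (95% interval -0.16 to 0.43) did not pass the test (adjusted p = 0.600 in limma). A probe annotated to Hbb-bt, an adult β-globin gene that is not on the list and was looked up after its values were known, may also read its near copy, the listed Hbb-b1. It averaged 9.95 ± 0.46 in controls and 10.20 ± 0.55 with PGISp (SD, n = 4 each), also without a call (adjusted p = 0.662 in limma).

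Among the 6 role groups, the genes of the red cell membrane had the lowest median difference, though not without the filter on low values, where it was -0.12 against -0.16 for haem synthesis. Of 12 members, 9 had a probe and 6 were tested: 2 fell, none rose, and the median difference was -0.27, against 0.00 over all genes tested. Of all genes tested, 4.56% fell and 6.26% rose. Ank1, which ties the spectrin skeleton to the membrane, read 10.06, 10.05, 10.13 and 10.01 in control B, D, F and H. In PGISp A, C, E and G it read 9.65, 9.81, 9.52 and 9.81. All 4 PGISp spines lay below all 4 control spines, and the controls spanned a narrow range. The difference was -0.37 (standard error 0.08), a 1.29-fold fall (adjusted p = 0.0232 in limma), which ranked 281 by p among the 9608 genes.

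The further probes of Ank1 gave much the same difference. The next brightest read 9.84 to 10.10 in control and 9.43 to 9.63 in PGISp spines, a difference of -0.42 (adjusted p = 0.0136 in limma with every probe tested separately), again with no overlap. The third read 8.53 to 8.83 in control and 8.17 to 8.58 in PGISp spines, where PGISp G lay above control D, and differed by -0.37 (adjusted p = 0.0653). The last 2 probes, with mean levels of 6.76 and 6.61, did not pass the filter and differed by -0.06 and -0.01. The call held without each array in turn (adjusted p from 0.0152 to 0.0832) but not with control B and F left out together (-0.34, adjusted p = 0.213).

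**Figure D2:**
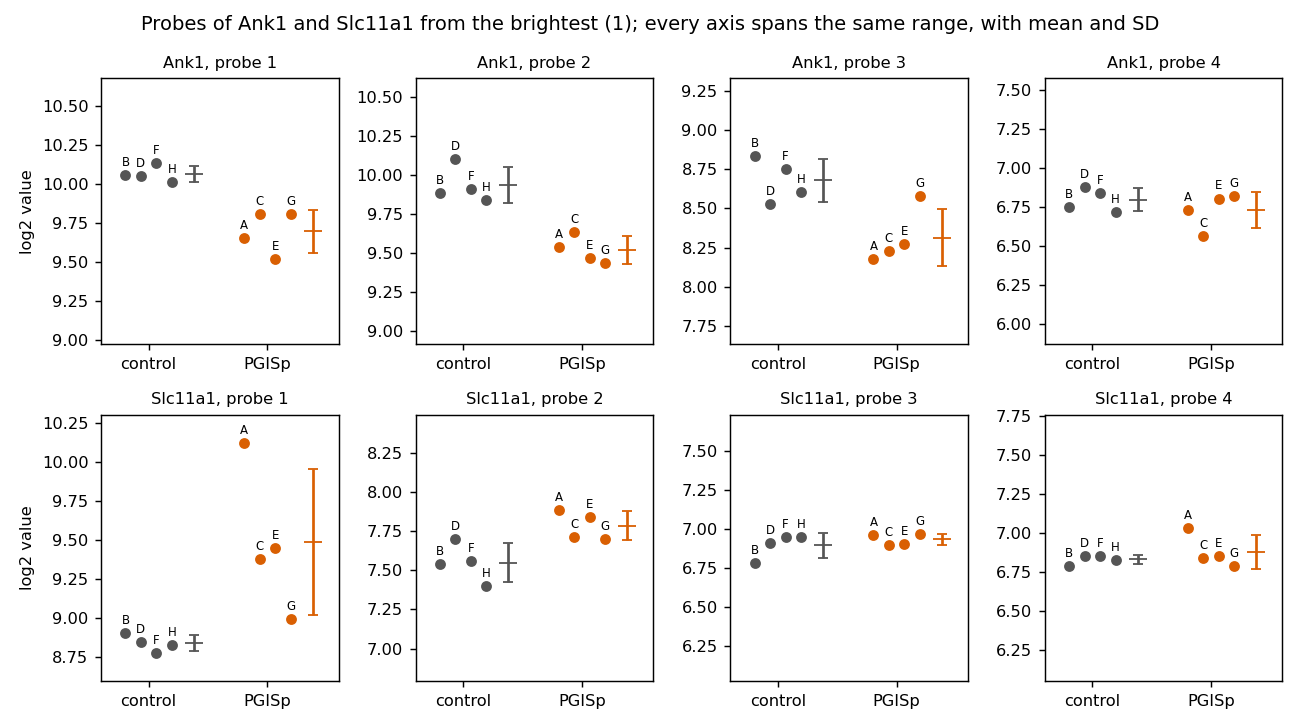
Log2 values on each array are plotted for the 4 brightest probes of Ank1 (top) and of Slc11a1 (bottom), by group, with the mean and SD of 4 arrays beside the points and the array position as a letter. The 3 brightest probes of Ank1 were lower in PGISp spines, whereas Slc11a1 rose by its brightest probe (0.65) and differed by 0.04 and 0.05 by the 2 dimmest.

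Spnb1, the β-spectrin of red cells, read 9.11, 8.80, 9.07 and 8.88 in control B, D, F and H and 8.39, 8.77, 8.04 and 8.69 in PGISp A, C, E and G. The groups did not overlap, although PGISp C lay just below control D, and PGISp E was the lowest. The difference was -0.49 (standard error 0.15), a 1.41-fold fall (adjusted p = 0.0833 in limma). This call was lost without PGISp A (adjusted p = 0.160), control B (0.194), PGISp E (0.132), control F (0.214) or control H (0.131), with control B and F left out together (0.475), with array position as a covariate (0.106), without the filter (0.144) and by the methods' t-test (0.223).

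Ank1 and Spnb1 are also transcribed in skeletal muscle, and muscle transcripts differed between these spines. Of 17 muscle genes tested, 2 fell (Mb and Tcap), where 4.56% of all genes fell, and none rose. All 17 had a difference below 0, with a median of -0.51. Their median level relative to the mean of the 8 arrays was 0.37 in control B, -0.06 in D, 0.53 in F and 0.10 in H, and -0.71, -0.21, -0.33 and 0.22 in PGISp A, C, E and G. Control B and F, highest for muscle, were also the highest spines for Spnb1 and for the brightest Ank1 probe. PGISp A and E, lowest for muscle, were the lowest for both. For that Ank1 probe, control B (10.057) barely exceeded control D (10.052). By the second Ank1 probe control D was the highest spine (10.10) and PGISp G the lowest (9.43). PGISp G was above control D and H for muscle and below them for both genes. Control B and F also carried the Eif2s3y signal, and its part cannot be told apart from that of muscle. The part of muscle in the lower Ank1 and Spnb1 values was not tested.

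Slc4a1, the anion exchanger band 3 to which ankyrin binds, was one of the brightest members. It read 13.32, 13.92, 13.52 and 13.66 in control B, D, F and H and 13.34, 13.46, 12.89 and 12.995 in PGISp A, C, E and G. PGISp A and C lay within the control range and E and G below it, and the difference of -0.44 (95% interval -0.77 to -0.10) had an unadjusted p of 0.0170 and an adjusted p of 0.125 in limma. It passed without PGISp C (-0.53, adjusted p = 0.0888), with array weights (adjusted p = 0.0771) and with a variance trend (adjusted p = 0.0963).

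For the remaining membrane genes the groups overlapped. Kel, the Kell blood group protein, averaged 9.44 ± 0.27 in controls and 9.26 ± 0.19 with PGISp (SD, n = 4 each), and Ermap, an erythroid membrane protein, 9.09 ± 0.32 and 8.97 ± 0.15, where control D (9.56) stood above all other spines. Rhag, the Rh-associated glycoprotein, was the only tested gene of this group with a difference above 0, at 0.11 (95% interval -0.15 to 0.38). Its 2 further probes differed by -0.03 and 0.15.

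Of the 9 genes of haem synthesis and its mitochondrial carriers 8 were tested, and none passed the test in limma. Of the 8, 2 had an unadjusted p under 0.05, both lower, where 22.6% of all genes had such a p. The median difference of the 8 was -0.16, and 7 of the 8 were below 0. Alas2, which makes the committed step of the pathway in erythroid cells, was the exception. It read 12.14, 12.71, 12.08 and 12.32 in control B, D, F and H and 12.57, 12.53, 12.42 and 12.53 in PGISp A, C, E and G. The PGISp spines lay close together, above 3 of the controls and below control D, and the difference was 0.20 (95% interval -0.08 to 0.48, adjusted p = 0.382). Without control D it was 0.33 and passed (adjusted p = 0.0478), and without control B and F it was 0.00 (-0.004, adjusted p = 0.994).

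The enzymes that follow Alas2 had differences below 0. Alad, which makes porphobilinogen, read 12.51, 12.95, 12.42 and 12.51 in control B, D, F and H and 12.62, 12.31, 12.10 and 12.03 in PGISp A, C, E and G. Apart from PGISp A the PGISp spines lay below every control, and the difference was -0.33 (95% interval -0.66 to 0.00, unadjusted p = 0.0497, adjusted p = 0.221). Urod, which trims the side chains of uroporphyrinogen, read 11.89, 12.13, 11.78 and 11.78 in control and 11.95, 11.48, 11.37 and 11.52 in PGISp spines, in the same order of arrays. Its difference was -0.31 (95% interval -0.60 to -0.03, unadjusted p = 0.0351, adjusted p = 0.182). PGISp A again stood among the controls, and without it Alad (-0.45, adjusted p = 0.0939) and Urod (-0.44, adjusted p = 0.0384) passed the test. Urod also passed with array weights (adjusted p = 0.0895) and with array position as a covariate (adjusted p = 0.0932).

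Slc25a38, the carrier that brings glycine into the mitochondrion, was also lower on average. It read 10.39 to 10.999 in control and 10.11 to 10.58 in PGISp spines, with PGISp A and C within the control range. Its difference was -0.30 (95% interval -0.63 to 0.03, adjusted p = 0.265), and its dimmer probes differed by -0.19 and -0.18. Unlike Alad and Urod, it did not pass without PGISp A (-0.39, adjusted p = 0.1705 in limma). Smaller differences were found for Ppox (-0.18), Fech, the ferrochelatase that inserts the iron (-0.13), Uros (-0.11) and Cpox (-0.04), none with an adjusted p below 0.350. Cpox had a mean level of 6.92 in control and 6.87 in PGISp spines, close to background.

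**Figure D3:**
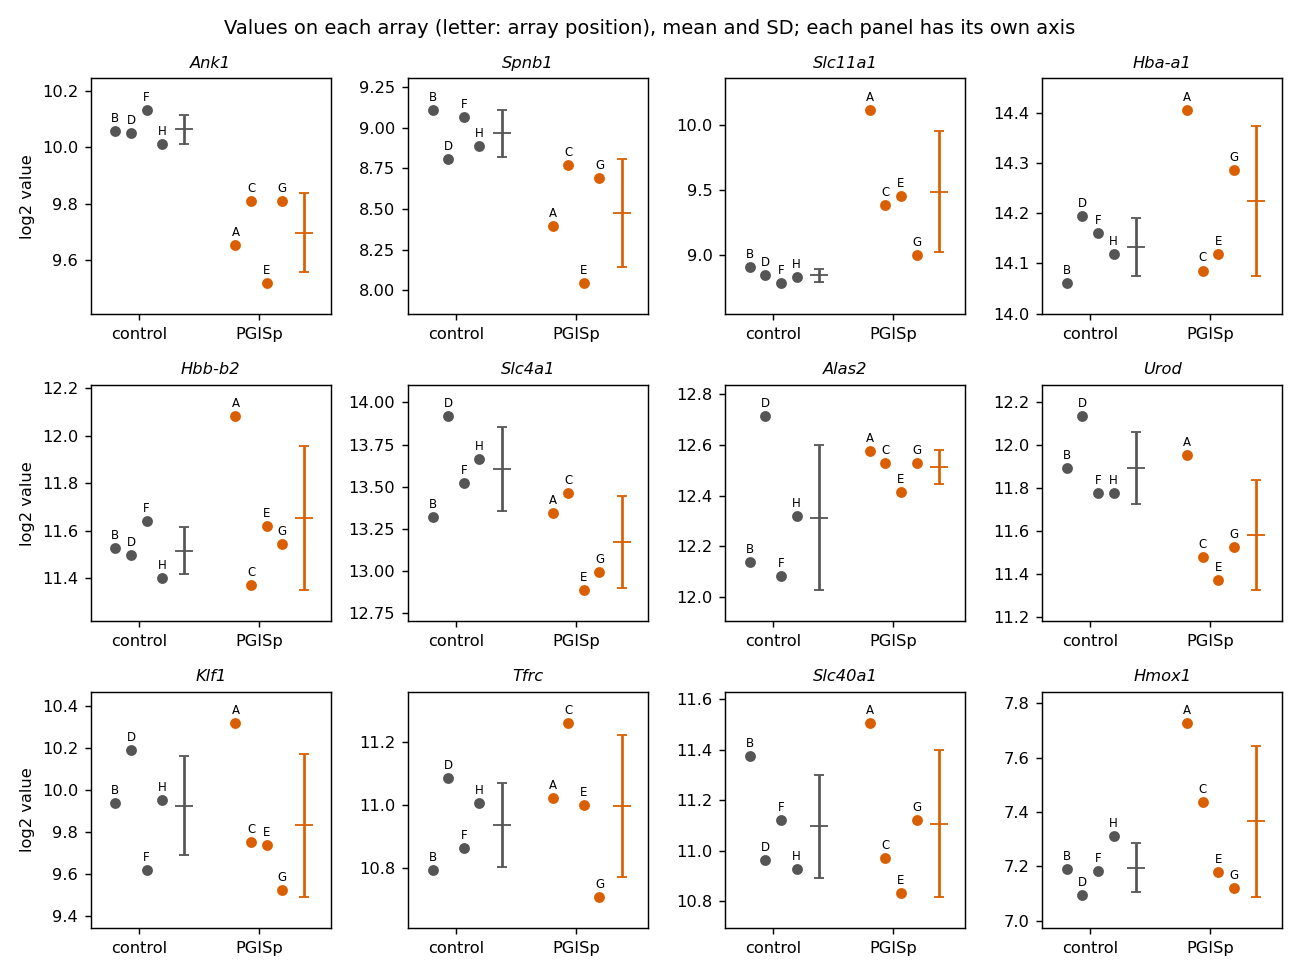
Log2 values of 12 members are plotted on each array by group, with the mean and SD of 4 arrays beside the points, letters for array positions and a separate axis for each gene. Groups are apart for Ank1, Spnb1 and Slc11a1 and overlap for the other 9, where control D or PGISp A is often the highest spine.

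The regulators of the erythroid lineage showed no call, and none had an unadjusted p under 0.05. Klf1, the activator of adult β-globin, read 9.94, 10.19, 9.62 and 9.95 in control B, D, F and H and 10.32, 9.75, 9.74 and 9.52 in PGISp A, C, E and G. PGISp A was the highest spine and PGISp G the lowest, and the difference was -0.09 (95% interval -0.47 to 0.28, adjusted p = 0.794 in limma). Tal1 (8.46 ± 0.17 and 8.38 ± 0.11), Gata1 (7.16 ± 0.07 and 7.10 ± 0.08) and Epor, the receptor for erythropoietin (7.68 ± 0.09 and 7.64 ± 0.09; control and PGISp, SD, n = 4 each), differed by -0.08, -0.06 and -0.04. All 4 differences were below 0, and their intervals all reached above 0.

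A single spine in each group was often the highest for erythroid genes. Over the 20 tested genes of haemoglobin, membrane, haem synthesis and regulators, control D was the highest control in 15 and the highest of all 8 spines in 13. PGISp A was the highest PGISp spine in 12. In haem synthesis, control D was the highest of the 8 in 7 of 8 genes. The median level of that group relative to the mean of the 8 arrays was 0.35 in control D and -0.06 to 0.07 in the other controls, and 0.14 in PGISp A against -0.15 to -0.04 in the other PGISp spines. Such a median was also highest in control D for the megakaryocyte and platelet (0.15) and B lineage genes (0.22) described below. Among PGISp spines, PGISp A was highest for the former (0.075) but not for the latter (-0.008). How often each spine was highest over all genes was not counted. Over the 20 genes the median difference was -0.11, with 4 above 0 and 16 below, where 48.5% of all genes tested were above 0. The test called 2 of the 20, both lower, where 10.8% of all genes were called and 4.56% were called lower.

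**Figure D4:**
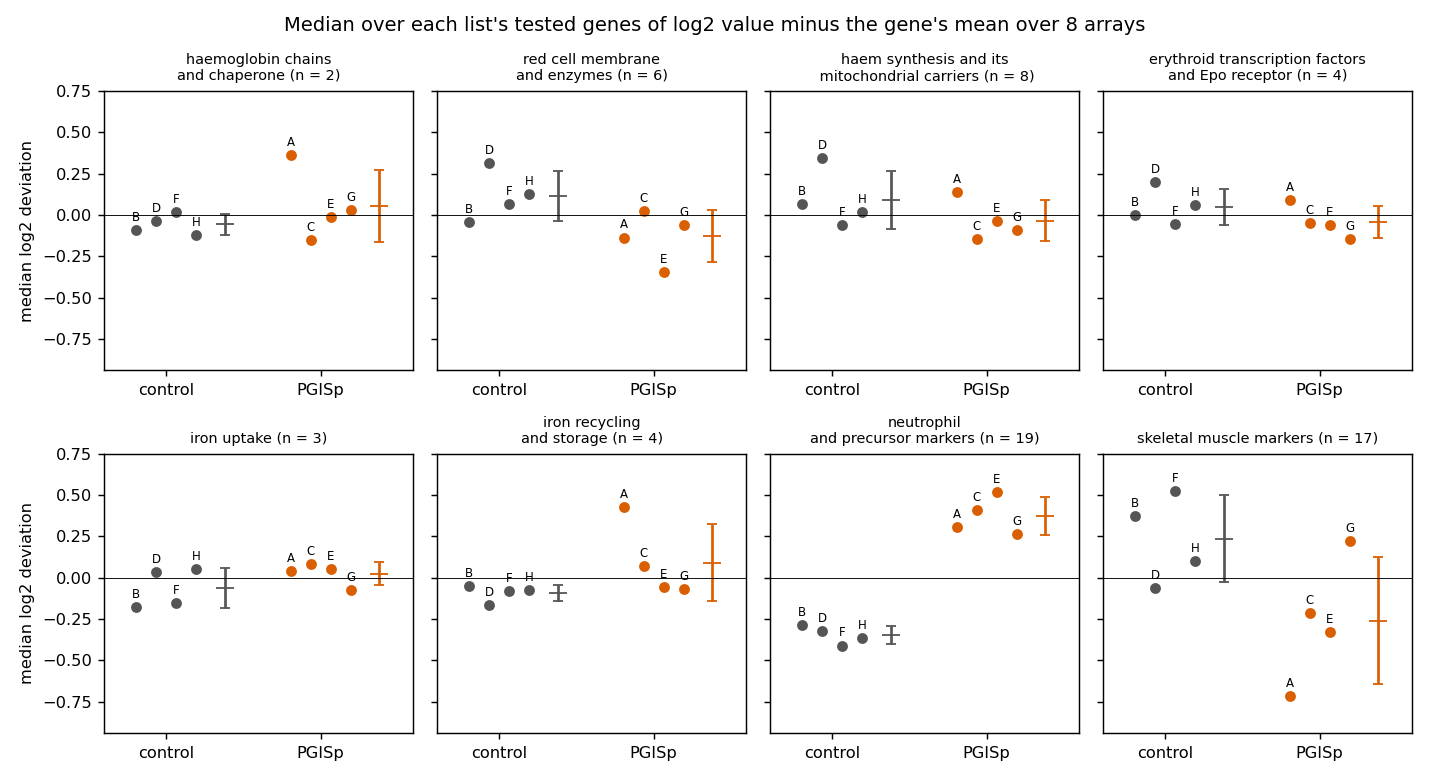
For each list the median over its tested genes of the log2 value minus the gene's mean over the 8 arrays is plotted per array (vertical axis), with the mean and SD of 4 arrays for each group and array positions as letters. All 6 role groups overlap between control and PGISp spines, the neutrophil markers (0.26 to 0.52 in PGISp, -0.41 to -0.29 in control) do not, and the muscle markers spread widely in both groups.

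No gene of iron uptake passed the test. Tfrc, the transferrin receptor, read 10.79, 11.09, 10.86 and 11.01 in control B, D, F and H and 11.02, 11.26, 11 and 10.71 in PGISp A, C, E and G, with PGISp C highest and PGISp G lowest. The difference was 0.06 (95% interval -0.19 to 0.31, adjusted p = 0.802 in limma), and 0.02 by its other probe. Trf, the gene of transferrin, and Slc11a2, the transporter that moves iron out of the endosome, differed by 0.02 (95% interval -0.28 to 0.32) and 0.03 (95% interval -0.14 to 0.20). No gene of this group had an unadjusted p under 0.05.

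Among the genes of iron recycling and storage, Slc11a1 was higher in PGISp spines and the others did not pass. Slc11a1, also known as NRAMP1, moves metal ions across the membrane of the phagosome. By its brightest probe it read 8.91, 8.85, 8.78 and 8.83 in control B, D, F and H. In PGISp A, C, E and G it read 10.12, 9.38, 9.45 and 8.999. Every PGISp spine lay above every control, with a wide spread from PGISp G, just above control B, to PGISp A. The difference was 0.65 (standard error 0.19), a 1.57-fold rise (adjusted p = 0.0745 in limma).

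The rise of Slc11a1 was not read alike by its 4 probes. The second probe read 7.40 to 7.70 in control and 7.70 to 7.89 in PGISp spines, a difference of 0.24 that did not pass (adjusted p = 0.107 with every probe tested separately). The 2 dimmest, near background, differed by 0.04 and 0.05. With the mean of the 4 probes the difference was 0.24 (adjusted p = 0.105). The call by the brightest probe was lost without control B (adjusted p = 0.141), PGISp C (0.116), control D (0.119), PGISp E (0.139), control F (0.189) or control H (0.142), with control B and F left out together (0.344), without the filter (0.136) and by the methods' t-test (0.218), while the difference stayed between 0.44 and 0.81 without any single array.

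Slc11a1 is transcribed in macrophages and neutrophils. Most neutrophil markers and a part of the macrophage and monocyte markers rose on these arrays, where 6.26% of all genes rose. Of 19 neutrophil genes tested 16 rose and none fell, and their median level relative to the mean of the 8 arrays was -0.41 to -0.29 in control and 0.26 to 0.52 in PGISp spines. Of 14 macrophage and monocyte genes 4 rose (Lyz2, Cd14, Ctss and Ly6c1) and none fell, with median levels of -0.15 to -0.04 and 0.03 to 0.12. The other 10 did not pass, among them Adgre1 (0.43, adjusted p = 0.106 in limma), Mrc1 (0.07), C1qa (0.04) and Mertk (0.01). Of the 14, 12 had a difference above 0 and 2 below. Cd163, the macrophage receptor for haemoglobin bound to haptoglobin, differed by -0.05 (adjusted p = 0.766 in limma), and Spic, a factor of the macrophages that recycle red cells, by -0.04 (adjusted p = 0.738). Csf1r, Cd68 and Ly6g have no probe under these symbols, and Marco, Ccr2 and Clec4f did not pass the filter. The part of these cells in the Slc11a1 values was not tested.

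Hmox1, the haem oxygenase that opens the haem ring, read 7.19, 7.09, 7.18 and 7.31 in control B, D, F and H and 7.73, 7.44, 7.18 and 7.12 in PGISp A, C, E and G. PGISp A and C were the highest spines and E and G lay within the controls, and the difference of 0.17 (95% interval -0.10 to 0.45) did not pass (adjusted p = 0.459 in limma). Slc40a1, the gene of ferroportin, read 11.38, 10.96, 11.12 and 10.93 in control and 11.51, 10.97, 10.83 and 11.12 in PGISp spines, in the same order. Its difference was 0.01 (95% interval -0.31 to 0.34, adjusted p = 0.977), which is the smallest of the 27.

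Fth1, the heavy chain of ferritin, read 14.12 to 14.32 in control and 14.09 to 14.24 in PGISp spines, as near to the top of the scale as Hba-a1. It differed by -0.03 (95% interval -0.17 to 0.12), and by -0.05 with its other probe. Ftl1, the light chain, read 6.53 to 6.62 on all 8 arrays and was above background on none of them. The 7 tested genes of iron uptake, recycling and storage had a median difference of 0.03, with 6 above 0 and 1 below, against -0.11 for the 20 erythroid genes. These are descriptions of the lists, and the difference between them was not tested.

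The wider pathway gave a similar picture on its erythroid side. Of 34 other erythroid genes tested, none rose and 1 fell, where 6.26% of all genes rose and 4.56% fell. Their median difference was -0.08. The gene that fell was E2f2, a cell cycle factor needed when erythroblasts mature. It read 10.40, 10.75, 10.39 and 10.25 in control B, D, F and H and 10.28, 9.64, 9.92 and 9.91 in PGISp A, C, E and G, a 1.42-fold fall (adjusted p = 0.0627 in limma), with PGISp A just above control H. Of 11 other haem genes none passed the test in limma, and 10 of the 11 were below 0. Of these 11, 1 had an unadjusted p under 0.05 (Tmem14c, lower), where 22.6% of all genes had such a p. The embryonic globin genes Hbb-bh1, Hbb-y and Hba-x did not pass the filter, and neither did Epo, Erfe or Hamp.

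On the iron side, 5 of 22 other genes rose and none fell, where 6.26% of all genes rose. This list was chosen with earlier results of these data known, so the excess is no test of iron handling. The part of neutrophils in it was not tested. Hp, the gene of haptoglobin, which binds free haemoglobin, read 10.69, 10.56, 10.67 and 10.40 in control B, D, F and H and 11.40, 11.57, 11.46 and 11.18 in PGISp A, C, E and G. The groups lay well apart, and the rise was 1.77-fold (adjusted p = 0.00228 in limma). Lcn2 and Ltf, which encode lipocalin 2 and lactoferrin, proteins of neutrophil granules that keep iron from bacteria, rose 1.77-fold (adjusted p = 0.00232) and 1.46-fold (adjusted p = 0.0208), and both also stand in the neutrophil list above.

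The other genes that rose were Pcbp1, an iron chaperone that loads ferritin, and Ncoa4, the receptor that brings ferritin to the lysosome. Pcbp1 read 10.02 to 10.13 in control and 10.27 to 10.58 in PGISp spines, a 1.32-fold rise (adjusted p = 0.0201 in limma). Ncoa4 read 7.94 to 8.22 in control and 8.30 to 8.33 in PGISp spines, a 1.18-fold rise (adjusted p = 0.0676). Neither gene overlapped between the groups, and the PGISp spines were close together for Ncoa4. The iron regulatory proteins Aco1 (-0.05) and Ireb2 (0.10) did not pass, nor did Nfe2l2 (0.12) and Bach1 (0.23), which regulate Hmox1.

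Lists of further cell types of the spine had no calls. Of 8 genes of megakaryocytes and platelets, a marrow lineage that depends on GATA1 and TAL1 as well, none passed the test in limma and none had an unadjusted p under 0.05, with a median difference of 0.01. Of 7 B lineage genes the same held, with a median of 0.04. Among 5 Schwann cell genes none was called (1 had an unadjusted p under 0.05, against 22.6% of all genes), with a median of -0.12.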

How the data were processed

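Whole spines of 4 control and 4 PGISp mice were measured on Illumina MouseRef-8 arrays from 500 ng of RNA. The deposited log2 values were made by the authors in GenomeStudio (the labels name BeadStudio), with the variance stabilizing transform and robust splines of lumi. Sorted values of the 8 arrays differ by at most 0.0050. A second deposited table of raw signals was not used, since its 16 columns carry no sample names. Of 25695 probes with values, 23976 were annotated to 1 gene symbol, 0 to several and 1719 to none. Probes with a mean log2 value above 6.77 were kept (12492), a gene was its brightest probe, and PGISp was set against control in limma (lmFit, eBayes), calling genes below an adjusted p of 0.1 (Benjamini-Hochberg), after the 10% false discovery rate of the methods. Per the labels, each spine came from a mouse of its own. The number of arrays limits precision. The members and lists were chosen with earlier results of these data known. Values on every array were planned for called members, for the largest change in other role groups and for haemoglobin, and up to 4 called genes of each further list were planned. Other members were shown after their values were seen, as was the fifth called iron gene. Alternatives covered the filter, the probe, the variance model, weights, position, threshold, test and arrays left out. The fit was tested on simulated data. Tools were R 4.3.3, limma 3.58.1, Python 3.11.15, pandas 2.3.3 and matplotlib 3.10.9.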

Additional observations from a re-analysis of the deposited data

Results flagged for a closer look

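Slc11a2, the endosomal iron transporter, read 7.40 in control F, far below the other controls, which lay within 7.66 to 7.68. The gap was 0.908 of the range of the group. Without control F the difference between the groups was -0.033 in place of 0.034, and neither passed the test in limma (adjusted p = 0.844 and adjusted p = 0.840). This was the 1 such value among 54 groups of 4 examined, where chance gives about 5%.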

How the results depend on the processing

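Of the counts of all genes called (601 higher, 438 lower) and of members called (1 higher, 2 lower), these settings moved at least 1 by over 1.5 times or to 0. A variance trend, with 3 members lower, is not among them, since this is exactly 1.5 times the main count. Without the filter, 0 members were higher and 1 lower, and the median difference of the membrane genes was -0.118, since genes at background then count. With the mean of a gene's probes 0 members were higher. With array weights 4 members were lower. At an adjusted p under 0.05 all genes gave 363 and 214 and members 0 and 1, and by the methods' t-test 258 and 153, and 0 and 1. Without control B and F these were 123 and 40, and 0 and 0. Leaving out each array in turn gave 263 to 818 and 142 to 746 for all genes, and 0 to 1 and 1 to 3 for members; control B, F and H and PGISp E each left Ank1 as the only member called. Direction turned for some differences that were not called: with array weights for Cpox (0.001) and Slc40a1 (-0.057), with array position for Slc40a1 (-0.051), and without control B and F for Rhag (-0.002), Alas2 (-0.004), Tfrc (-0.049), Slc11a2 (-0.028) and Trf (-0.163). Alas2 was 0.199 with all arrays. Leaving out single arrays, differences that turned ran from -0.005 to 0.232 (Hbb-b2), -0.083 to 0.026 (Cpox), -0.122 to 0.104 (Slc40a1), -0.055 to 0.13 (Trf), -0.027 to 0.158 (Tfrc), -0.193 to 0.039 (Ermap), -0.033 to 0.065 (Slc11a2), -0.254 to 0.01 (Klf1) and -0.054 to 0.016 (Fth1). The cause was not tested. Ank1, Spnb1 and Slc11a1 kept their direction in all 19 alternatives each. Normalization of the raw signals was not run. No paired analysis was run, since each spine came from a mouse of its own and the methods used an unpaired test. Signals near background and near the top of the scale limit what can be resolved.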
